A study of Mus musculus with 32 samples.

Results

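OSE-BPR primary tumours were compared with normal mouse ovary across all genes. OSE-BPR is a model of ovarian carcinoma started from the ovarian surface epithelium, the single cell layer that covers the ovary, and the primary tumours are those that arose in the engineered animals themselves (GEMM, genetically engineered mouse model). The comparison used the 3 libraries labelled as OSE-BPR GEMM and the 3 labelled as normal ovary, 6 of the 32 libraries of the series. The other 26 libraries, which are allografts, tumours started from the oviduct and normal oviduct, entered the fit and are quoted only where they bear on a result. The tumours came from female FVB mice that carried the transgene K18GT121 Tg/+ together with floxed Trp53 fl/fl and Brca1 fl/fl alleles, in which adenoviral Cre recombinase was placed under the ovarian bursa and the tumours were taken at the endpoint. The ovaries came from 3 wild type female mice labelled C57Bl/6 that received no Cre, and the same 3 animals gave the oviducts of the series. Ages are not given in the sources used here. Tumour and ovary therefore differ in genotype, strain label, Cre virus and time at once, and these cannot be told apart in this comparison.

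Brca1 and Trp53 are tumour suppressors that act in homologous recombination and in the response to DNA damage. K18GT121 is a transgene with the keratin 18 promoter whose product inhibits the Rb family of proteins, which hold E2F transcription factors in check until a cell enters the cycle. The normal ovary is a whole organ of follicles with oocytes and granulosa cells, steroid-producing theca and luteal cells, stroma, vessels and muscle, and its surface epithelium is a small part of it. A level in a bulk library is an average over all of these, so fewer cells of a type and less RNA per cell cannot be told apart.

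Summed expected counts ran from 13.99 to 16.89 M (mega) in the tumours and from 14.13 to 18.13 M in the ovaries. Levels below are counts-per-million (CPM, scaled with the TMM factors), and a gene with no count in a library is under a floor of 3 counts, which is 0.164 to 0.208 CPM here and covers counting error only. The ovaries were alike (Spearman correlation of log2 CPM across genes 0.9891 to 0.9906), the tumours less so (0.9197 to 0.9643), and tumour against ovary gave 0.8549 to 0.8942. Mitochondrial genes held 1.46% to 2.15% of the counts in the tumours and 2.98% to 3.38% in the ovaries. No pair of libraries agreed within counting noise.

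One property of the ovaries goes against their strain label. Across the series, 45 genes separated all 8 FVB-labelled OSE-BPR tumours (3 primary tumours and 5 allografts) from all 18 C57Bl/6-labelled tumours by a gap of at least 8-fold, and in 43 of these (95.6%) all 3 ovaries lay on the side of the OSE-BPR tumours, past the midpoint of the gap on the log2 scale. The set also holds Pax8 and Foxa2, which were high in the tumours of oviduct origin. Among the 45 were 28 pseudogenes, and for 28 of 28 the ovaries lay on that side. Trim12a had 12.0 to 56.2 CPM in the 18 C57Bl/6-labelled tumours, at most 0.122 in the OSE-BPR tumours, and 0.0693, 0 and 0 in the ovaries. The pseudogene Gm13394 had at most 3.32 CPM in the C57Bl/6-labelled tumours, 658 to 1256 in the OSE-BPR tumours, and 411, 411 and 418 in the ovaries. The noncoding transcript AI506816 had 63.0 to 349 CPM, 0.862 to 2.83 CPM, and 0.971 to 1.26 CPM in the same order. Of the 45 genes, Pnlip and Pla2g4e had the ovaries on the side of the C57Bl/6-labelled tumours. Entpd4 is not among the 45, and its ovary levels went with the labels. It had 19.2, 21.6 and 17.2 CPM in the primary tumours and 59.1, 69.9 and 75.3 in the ovaries, beside a median of 62.6 in the C57Bl/6-labelled primary tumours and 44.6 to 47.3 in the oviducts. The oviducts of the same 3 animals lay with the OSE-BPR tumours in 37 of the 45 genes, with the C57Bl/6-labelled tumours in 7, and in 28 of 28 pseudogenes with the OSE-BPR tumours. Strain label and organ of origin cannot be told apart among the tumours, and the ovaries are called by their label below.

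**Figure D1:**
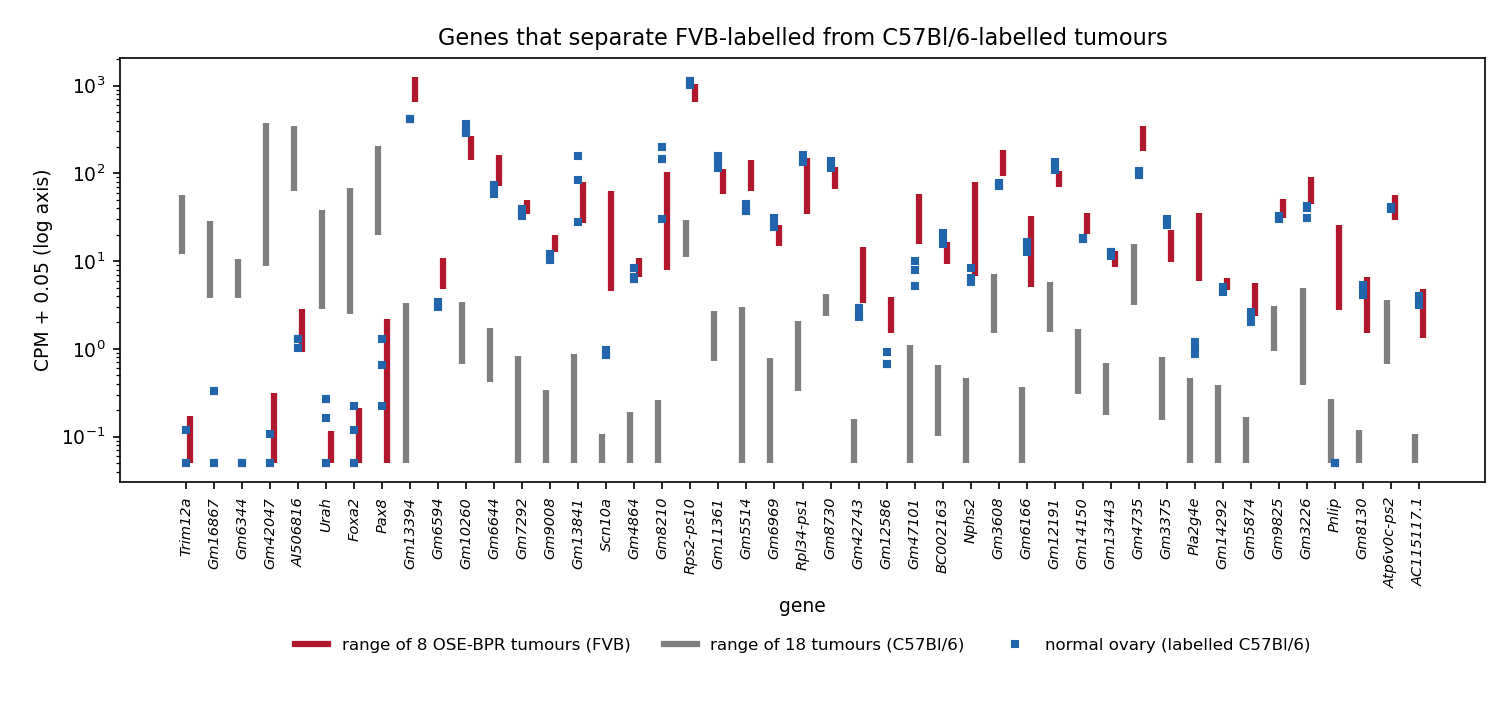
CPM + 0.05 on a log axis for the 45 genes that separate the tumours by strain label: red bars span the 8 OSE-BPR tumours, grey bars the 18 C57Bl/6-labelled tumours, and blue squares are the 3 ovaries. The ovaries lie nearer the red bars than the grey in 43 genes, and nearer the grey in Pnlip and Pla2g4e. A gene with no count in any OSE-BPR tumour shows no red bar.

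Of 20887 genes tested, 4842 (23.2%) differed between the primary tumours and the ovaries at a Benjamini-Hochberg adjusted p under 0.05 in edgeR's quasi-likelihood test, and these genes are said below to have risen or fallen. In the tumours 2414 rose (11.6%) and 2428 fell (11.6%). The spread of each gene was estimated over all 32 libraries. The SE and adjusted p below therefore also reflect the other 26 libraries and do not measure the spread of the 6 compared ones alone. Changes were large: 2040 of the rises and 1946 of the falls were at least 2-fold, and 475 and 811 were at least 16-fold. The median log2 fold change was 2.04 among genes that rose, −2.45 among those that fell and 0.003 over all tested genes. In 10128 genes (48.5%) the 3 tumours and 3 ovaries did not overlap, and 4655 of the called genes were among them. Of the genes that fell, 304 had no count in any tumour, and of those that rose 99 had none in any ovary. Protein coding genes were called in 4138 of 16688 cases (24.8%) and processed pseudogenes in 7.94%. Counts moved when a library was left out: 3205 genes were called without tumour 3 and 3158 without ovary 2, and the number that rose was 1518, 1424 and 1571 without ovary 1, 2 or 3. The number that fell was 1537 without tumour 2 and 1402 without tumour 3.

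The targeted genes check the labels. Trp53 had 12.5, 8.40 and 14.6 CPM in tumours 1 to 3 and 112, 119 and 120 in the ovaries. Each tumour lay far below each ovary, with a log2 fold change of −3.31 ± 0.26 (SE) and an adjusted p of 9.12e-09. The 5 OSE-BPR allografts had 9.38 to 15.7 CPM, close to the primary tumours. For Brca1 the levels were 17.1, 23.1 and 28.3 CPM in the tumours and 13.8, 15.4 and 22.5 in the ovaries, which overlap (log2 fold change 0.40 ± 0.40, adjusted p = 0.506). The labels do not say which exons the floxed alleles flank, and a count over a whole gene checks such a deletion only in part. Rb1, whose protein the transgene inhibits without deleting the gene, had 21.0, 33.4 and 32.6 against 20.6, 22.7 and 28.2 CPM (0.28 ± 0.30, adjusted p = 0.541).

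Genes of DNA replication that E2F controls were higher in the tumours. Of 33 tested members of the list of cell cycle entry and E2F targets, 25 rose, none fell and 8 were not called, with a median log2 fold change of 1.38 beside 0.003 over all genes. Mcm6, a subunit of the replicative helicase, had 260, 399 and 323 CPM in the tumours and 60.8, 61.5 and 86.4 in the ovaries. That is a log2 fold change of 2.23 ± 0.34 with an adjusted p of 5.72e-05, and the groups lie well apart. Its partner Mcm5 had 130, 232 and 193 against 51.7, 48.7 and 72.6 CPM (1.68 ± 0.33, adjusted p = 0.00075). The thymidine salvage enzyme Tk1 showed the largest change of the list, at 59.1, 70.0 and 155 CPM in the tumours against 9.91, 13.3 and 17.4 (2.80 ± 0.46, adjusted p = 0.000141). Cdt1, which loads the helicase on origins, had 72.1, 147 and 136 against 21.6, 23.2 and 27.9 CPM (2.29 ± 0.33, adjusted p = 3.84e-05). E2F genes themselves were among those that rose: E2f1 by 1.68, the repressor E2f7 by 1.91 and E2f8 by 2.39 on the log2 scale. Not every member moved. Ccne1, the cyclin of the G1 to S transition, had 7.04, 5.93 and 3.24 CPM against 4.85, 6.29 and 6.08 (adjusted p = 0.917), and the phosphatase gene Cdc25a had 39.0, 55.8 and 28.0 against 39.1, 43.6 and 39.9 (adjusted p = 1).

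The promoters of 4 members that rose are shown because they hold an E2F motif near the gene start. Promoter windows of 250 bases before to 50 after a start were taken from RefSeq (GRCm38.p6) and searched on both strands for TTTCGCGC, TTTCCCGC, TTTGGCGC and TTTGCCGC, whose matches can overlap. The capitals mark 1 match in each, every sequence runs 5′ to 3′ in the direction of the gene, and the marked match of E2f7 is a reverse complement. Mcm5 and Mcm6 also hold an overlapping reverse complement match that is not in capitals, with its first base 149 and 106 bases before the start. Mcm6 has another match at 47 bases, outside the printed stretch. The intervals are chr8:75109306-75109413 (Mcm5, plus strand), chr1:128359758-128359865 (Mcm6, minus strand), chr2:157204535-157204602 (Rbl1, minus strand) and chr10:110745191-110745298 (E2f7, plus strand).
Mcm5: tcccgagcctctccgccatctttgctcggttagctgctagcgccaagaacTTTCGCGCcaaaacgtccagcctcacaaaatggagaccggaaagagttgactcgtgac
Mcm6: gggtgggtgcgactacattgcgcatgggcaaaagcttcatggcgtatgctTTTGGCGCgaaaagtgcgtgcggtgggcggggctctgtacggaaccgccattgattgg
Rbl1: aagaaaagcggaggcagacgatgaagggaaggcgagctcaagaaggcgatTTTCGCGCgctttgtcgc
E2f7: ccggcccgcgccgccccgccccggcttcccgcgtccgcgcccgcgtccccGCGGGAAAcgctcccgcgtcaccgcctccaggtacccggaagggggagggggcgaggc
The first base of the marked match lies 153 bases before the start in Mcm5, 110 in Mcm6, 18 in Rbl1 and 198 in E2f7. Of the 32 promoters of the list in the table (27 genes), 13 hold a match (40.6%), against 744 of all 32851 promoters (2.26%). The list was assembled as E2F targets, so this share describes the list and not the tumours, and Cdc25a and Dnmt1, which were not called, hold a match as well.

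Genes of mitosis moved with those of replication. Of 24 tested members 18 rose and none fell, with a median log2 fold change of 1.40. The proliferation marker Mki67 had 203, 533 and 508 CPM in the tumours and 75.9, 89.3 and 121 in the ovaries (2.12 ± 0.46, adjusted p = 0.00179). Tumour 1 was the lowest of the tumours for Mki67 and still above every ovary. Cdc20, an activator of the anaphase-promoting complex, had 131, 244 and 200 against 27.5, 29.4 and 40.6 CPM (2.56 ± 0.42, adjusted p = 0.000132). The spindle motor gene Kif11 rose by 2.37 and the kinetochore motor gene Cenpe by 2.08 on the log2 scale. Members without a call included Ccnb1, which lies on chromosome 13 (0.32 ± 0.40, adjusted p = 0.601), and the checkpoint kinase gene Ttk (0.77 ± 0.44, adjusted p = 0.22). The ovary is itself a cycling tissue: the 24 genes summed to 690 to 1049 CPM in the ovaries and 1900 to 3011 in the tumours.

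Inhibitors of cyclin-dependent kinases were prominent. Cdkn2a, which encodes p16 and Arf and is classically derepressed when Rb is inactive, had 273, 200 and 177 CPM in the tumours and 0.832, 1.03 and 0.931 in the ovaries. It rose by 7.85 ± 0.44 on the log2 scale (adjusted p = 2.34e-11), with each tumour far above each ovary, and the allografts held 118 to 216 CPM. Cdkn2c, which encodes p18, had 95.0, 135 and 133 against 23.4, 22.3 and 27.2 CPM (2.32 ± 0.43, adjusted p = 0.000472). Rbl1, which encodes the Rb relative p107, had 64.1, 79.4 and 90.02 against 16.4, 14.8 and 22.4 CPM (2.12 ± 0.32, adjusted p = 5.18e-05). The others of the 6 that rose among 15 tested members were Cdkn1b, Cdkn2d and the imprinted Cdkn1c. Cdkn1c had 45.9, 158 and 343 CPM against 13.2, 13.4 and 9.42 (adjusted p = 0.0223) and lost its call without tumour 3 (0.0863) or ovary 1, 2 or 3 (0.0699, 0.0707 and 0.0813). None of the 15 fell. The cyclin D genes were not called and split the tumours: Ccnd2 had 240 CPM in tumour 1 against 9.88 and 5.00 in tumours 2 and 3, with 232 to 253 in the ovaries. Ccnd1 had 94.3, 13.8 and 3.54 CPM in the tumours and 21.4 to 23.2 in the ovaries (adjusted p = 0.582).

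Repair genes of the Brca1 pathway rose in part. In the list of homologous recombination and Fanconi repair, 12 of 24 tested genes rose, 1 fell and 11 were not called, with a median of 1.00. The translocase gene Rad54b had 28.2, 48.3 and 52.1 CPM in the tumours against 5.89, 7.37 and 9.48 in the ovaries (2.50 ± 0.34, adjusted p = 2.59e-05). Bard1, the partner of Brca1, rose by 1.72 ± 0.38 (adjusted p = 0.00198), while Brca2 was not called (0.92 ± 0.42, adjusted p = 0.115). The member that fell was Fancc, a core Fanconi gene on chromosome 13, with 6.84, 5.66 and 7.26 CPM in the tumours and 27.0, 26.7 and 24.9 in the ovaries (−1.99 ± 0.30, adjusted p = 5.3e-05).

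Targets of p53 fell only in part. Of 22 tested, 5 fell (22.7%), 2 rose (9.09%) and 15 were not called, beside 11.6% in each direction over all genes. The median log2 fold change was −0.42. Zmat3, an RNA-binding p53 target, had 15.0, 19.1 and 10.2 CPM in the tumours and 42.3, 43.1 and 46.4 in the ovaries (−1.57 ± 0.22, adjusted p = 2.93e-05). The apoptosis gene Bax had 30.6, 28.2 and 22.2 against 53.9, 58.1 and 56.2 CPM (−1.05 ± 0.22, adjusted p = 0.00161). Cdkn1a, which encodes p21, overlapped at 20.6, 95.3 and 52.4 against 20.3, 32.9 and 51.7 CPM (adjusted p = 0.513). Going the other way, the apoptosis gene Pmaip1 had 2.68, 73.6 and 129 CPM in the tumours and 1.04 to 1.48 in the ovaries (5.70 ± 1.2, adjusted p = 0.00124), so that tumour 1 lay close to the ovaries. The count of members that fell was 3 without tumour 2 or ovary 1 and 2 without tumour 3.

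Markers of the surface epithelium were far above whole ovary. In the list of ovarian surface epithelium and mesothelium 14 of 20 tested members rose, none fell and the median log2 fold change was 3.43. Krt18, a keratin of simple epithelia whose promoter drives the transgene, had 623, 459 and 527 CPM in the tumours and 12.1, 10.1 and 14.0 in the ovaries (5.47 ± 0.60, adjusted p = 1.56e-06). Krt7 had 714, 316 and 302 against 8.25, 6.92 and 11.1 CPM (5.66 ± 0.92, adjusted p = 0.000132). Wt1, a transcription factor of the coelomic lining, had 614, 1002 and 1027 CPM in the tumours and 95.1, 95.9 and 102 in the ovaries (3.17 ± 0.56, adjusted p = 0.000282). These levels exceeded every ovary in every tumour. Upk3b, a uroplakin gene that marks mesothelium, had 515, 1079 and 977 against 84.7, 51.4 and 60.6 CPM (3.71 ± 0.95, adjusted p = 0.00667). Rspo1, a Wnt agonist of the early ovary, had 102, 344 and 329 against 16.9, 11.8 and 10.1 CPM (4.32 ± 0.79, adjusted p = 0.00038). Members that did not rise included Aldh1a1, a retinaldehyde dehydrogenase gene often used to mark this epithelium, at 756, 352 and 340 against 869, 700 and 756 CPM (adjusted p = 0.625). Upk1b was low in both groups, at 3.22, 4.39 and 2.20 against 5.20, 2.74 and 6.46 CPM (adjusted p = 0.708). The marker of the stem-like surface cells Lgr5 divided the tumours, with 19.6 CPM in tumour 1 and 460 and 399 in tumours 2 and 3 against 26.4, 35.7 and 30.5 in the ovaries (adjusted p = 0.0763).

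General epithelial genes rose in 14 of 23 tested cases, with none lower and a median of 3.13. Spint2, an inhibitor of membrane proteases, had 270, 279 and 361 CPM in the tumours and 49.99, 51.2 and 39.0 in the ovaries (2.697 ± 0.39, adjusted p = 4.48e-05). Epcam, the epithelial adhesion molecule, had 419, 455 and 472 against 13.7, 12.0 and 19.4 CPM (4.90 ± 1.35, adjusted p = 0.0106), and its adjusted p was 0.0502 without ovary 2. Cdh1, which encodes E-cadherin, had 44.1, 385 and 72.7 CPM in the tumours against 6.29 to 7.40 in the ovaries (adjusted p = 0.0192). The list's count fell to 8 without ovary 1, 6 without ovary 2 and 8 without ovary 3. Some epithelial regulators stayed low: Grhl2 had 0.0670, 3.24 and 0 CPM in the tumours, and Ovol2 at most 0.275. Pax8, the marker of oviduct secretory cells, had 0.335, 0.165 and 0 CPM in the tumours and 1.25, 0.172 and 0.603 in the ovaries (adjusted p = 0.363). In the normal oviducts Pax8 reached 82.1 to 115 CPM and in the C57Bl/6-labelled primary tumours 24.2 to 207.

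**Figure D2:**
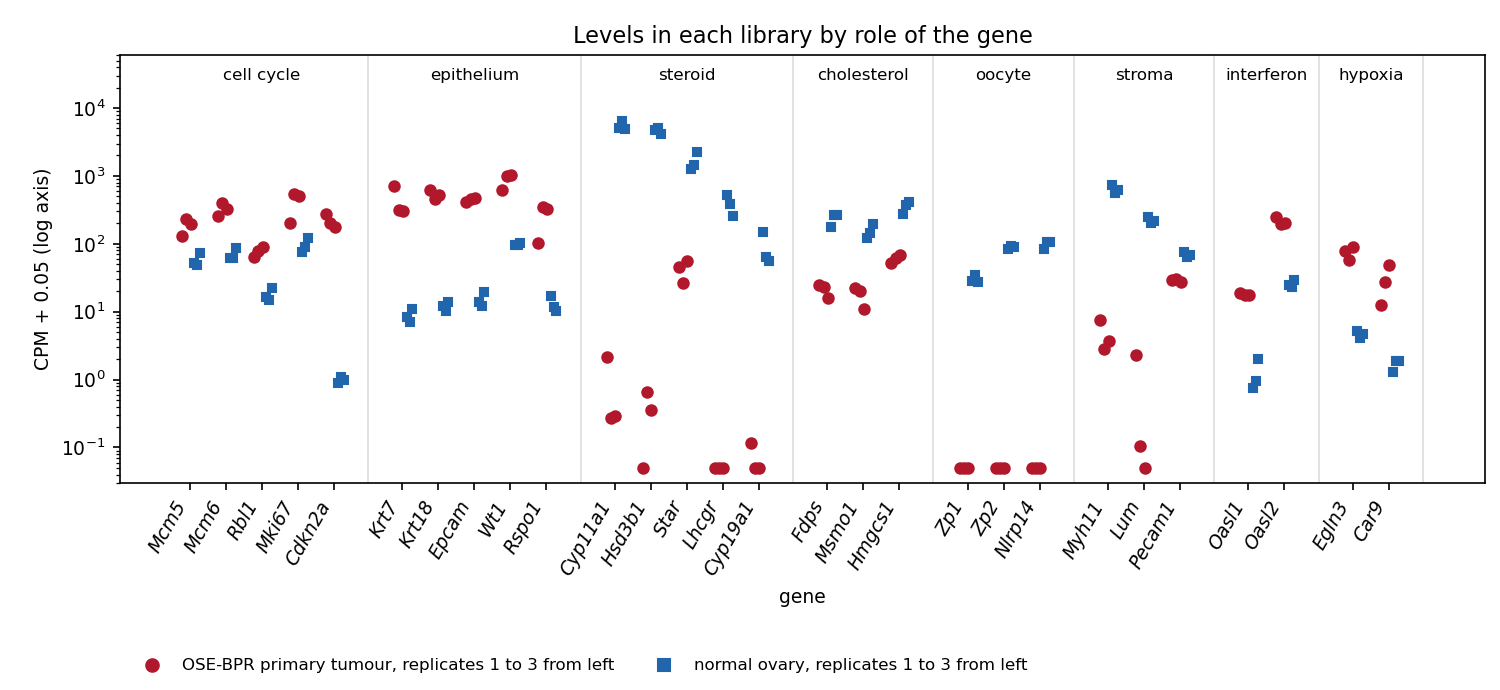
CPM + 0.05 on a log axis for 28 genes grouped by role, with red circles for OSE-BPR primary tumours 1 to 3 and blue squares for ovaries 1 to 3, each from left to right. Cell cycle, epithelial, interferon and hypoxia genes lie higher in the tumours, and steroid, cholesterol, oocyte and stromal genes lie lower, down to no count in Lhcgr, Zp1, Zp2 and Nlrp14.

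Transcription factors of the coelomic lining and early gonad rose in 7 of 18 tested cases (38.9%), and 2 fell (11.1%, near the 11.6% of all genes), with a median of 1.55. Sox9, a testis-determining factor and progenitor gene, had 246, 116 and 62.0 CPM in the tumours and 6.24, 4.23 and 5.92 in the ovaries (4.69 ± 0.71, adjusted p = 5.62e-05). Lhx2, a LIM homeobox gene, had 15.0, 42.6 and 44.6 against 0.416, 0.514 and 0.219 CPM (6.45 ± 1.42, adjusted p = 0.00206). Its relative Lhx9, which is needed for gonad formation, had 12.1, 498 and 833 CPM in the tumours and 15.6, 14.2 and 10.6 in the ovaries. Tumour 1 thus lay within the ovaries and the rise rests on tumours 2 and 3 (adjusted p = 0.0114, and 0.0516 without ovary 3). Emx2, a homeobox gene of the urogenital ridge, had 93.9, 209 and 271 against 18.4, 17.0 and 19.6 CPM (3.38 ± 0.55, adjusted p = 0.000126). Nr5a1, which encodes steroidogenic factor 1, was not called at 210, 184 and 296 against 400, 436 and 351 CPM (adjusted p = 0.773), although the groups do not overlap. Gata4 had 515, 345 and 592 against 329, 294 and 266 CPM (adjusted p = 0.594).

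Steroid synthesis had the largest share of called members of the 35 gene lists examined. Of 14 tested members 13 fell (92.9%), none rose and the median log2 fold change was −5.53. Cyp11a1, which makes pregnenolone from cholesterol, had 2.08, 0.2196 and 0.244 CPM in the tumours and 5094, 6414 and 4923 in the ovaries (−12.68 ± 2.12, adjusted p = 0.000172). Hsd3b1, the next enzyme of the pathway, had 0, 0.604 and 0.305 against 4822, 5087 and 4119 CPM (−13.82 ± 2.77, adjusted p = 0.0011). Star, which carries cholesterol into the mitochondrion, kept a measurable level at 45.2, 26.6 and 56.2 CPM against 1250, 1459 and 2260 (−5.28 ± 1.08, adjusted p = 0.00116). Akr1c18, which breaks down progesterone in the corpus luteum, had a single count in the 3 tumours together and 861, 1580 and 1984 CPM in the ovaries. The aromatase gene Cyp19a1 had a single tumour count as well, against 150, 62.9 and 54.9 CPM. The member that was not called was Nr5a1. Summed over the list, the tumours held 498 to 616 CPM and the ovaries 16660 to 19550.

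Receptors and secreted signals of the follicle followed. Lhcgr, the receptor for luteinizing hormone, had no count in any tumour and 517, 389 and 255 CPM in the ovaries, at least 2120-fold lower against the floor (adjusted p = 0.00022). Among 8 hormone receptors 4 fell and none rose. The prolactin receptor gene Prlr had 0.536, 1.15 and 1.47 against 271, 285 and 289 CPM (−8.05 ± 1.16, adjusted p = 3.67e-05), and Esr2, the estrogen receptor of granulosa cells, had 1.94, 1.32 and 0.0610 against 82.1, 89.8 and 97.6 CPM (−6.34 ± 1.54, adjusted p = 0.00482). The other estrogen receptor gene, Esr1, was not called at 23.1, 84.8 and 166 against 51.9, 48.8 and 41.1 CPM (adjusted p = 0.436). In the granulosa list 11 of 16 tested members fell and 2 rose, with a median of −4.45. Inhba, a subunit of inhibins and activins, had 3.35, 0.988 and 1.16 against 564, 366 and 365 CPM (−7.89 ± 1.04, adjusted p = 1.82e-05). The estradiol-forming enzyme gene Hsd17b1 had 0.804, 0.824 and 2.38 against 144, 119 and 131 CPM (−6.61 ± 0.97, adjusted p = 4.5e-05). Kctd14 and Bex2 rose; Kctd14 had 249, 792 and 794 CPM in the tumours and 81.5, 83.2 and 127 in the ovaries (2.65 ± 0.72, adjusted p = 0.00956). Foxl2, the factor that keeps granulosa cell identity, was not called: 49.9, 33.4 and 1.59 CPM against 277, 265 and 286 (−3.29 ± 1.61, adjusted p = 0.142), with no overlap. The granulosa count was 5 without tumour 2, 5 without tumour 3, and 7, 7 and 8 without ovary 1, 2 or 3. For cumulus expansion and ovulation 1 of 12 tested members fell (8.33%), the Wnt antagonist gene Sfrp4, at 2.61, 0.384 and 0.0610 against 1362, 1643 and 1471 CPM, and 3 fell without tumour 1.

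Genes that supply sterol for steroid hormones fell together with them. Of 19 tested members of cholesterol synthesis and uptake 15 fell, none rose and the median was −2.02. Fdps, which makes farnesyl diphosphate, had 24.8, 22.9 and 15.8 CPM in the tumours and 179, 266 and 265 in the ovaries (−3.48 ± 0.39, adjusted p = 2.04e-06). Hmgcs1, which makes HMG-CoA, had 52.2, 61.5 and 67.9 against 278, 373 and 409 CPM (−2.55 ± 0.37, adjusted p = 4.68e-05). The sterol oxidase gene Msmo1 had 22.4, 19.9 and 11.1 against 120, 144 and 198 CPM (−3.12 ± 0.44, adjusted p = 2.93e-05). Each of these 3 genes was lower in every tumour than in every ovary. Srebf2, which encodes the transcription factor that controls the pathway, was not called at 219, 95.6 and 137 against 186, 193 and 215 CPM (adjusted p = 0.413). The SREBP motifs TCACCCCAC and TCACGCCAC, searched on both strands, were in 1 of the 16 promoters of the list in the table (6.25%), that of Hmgcs1, against 0.67% of all promoters. The SF-1 motif CAAGGTCA was in 0 of 14 promoters of the steroid list against 1.56% of all promoters, which says only that these letters are not in these windows.

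Oocyte genes were at or near 0 in the tumours. Of 24 tested members 20 fell and none rose. The median log2 fold change was −8.17, or −6.75 with the 9 genes that had no tumour count set at their bound. The egg coat gene Zp2 had 0 in each tumour and 83.3, 92.1 and 89.7 CPM in the ovaries, at least 483-fold lower (adjusted p = 7.79e-05). Nlrp14, an oocyte gene needed by the early embryo, had 84.5, 107 and 106 CPM in the ovaries and no tumour count, at least 542-fold lower. Zp1 was at least 164-fold lower and Khdc3 at least 134-fold. Some members kept tumour counts. Gdf9, the growth factor of the oocyte, had 0.201, 3.40 and 5.86 CPM in the tumours against 85.6 to 95.9, and Ooep had 37.8 CPM in tumour 3, above the 21.6 to 24.7 CPM of the ovaries (adjusted p = 0.751). Over the list the tumours summed to 27.6, 47.4 and 80.6 CPM and the ovaries to 837 to 949.

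**Figure D3:**
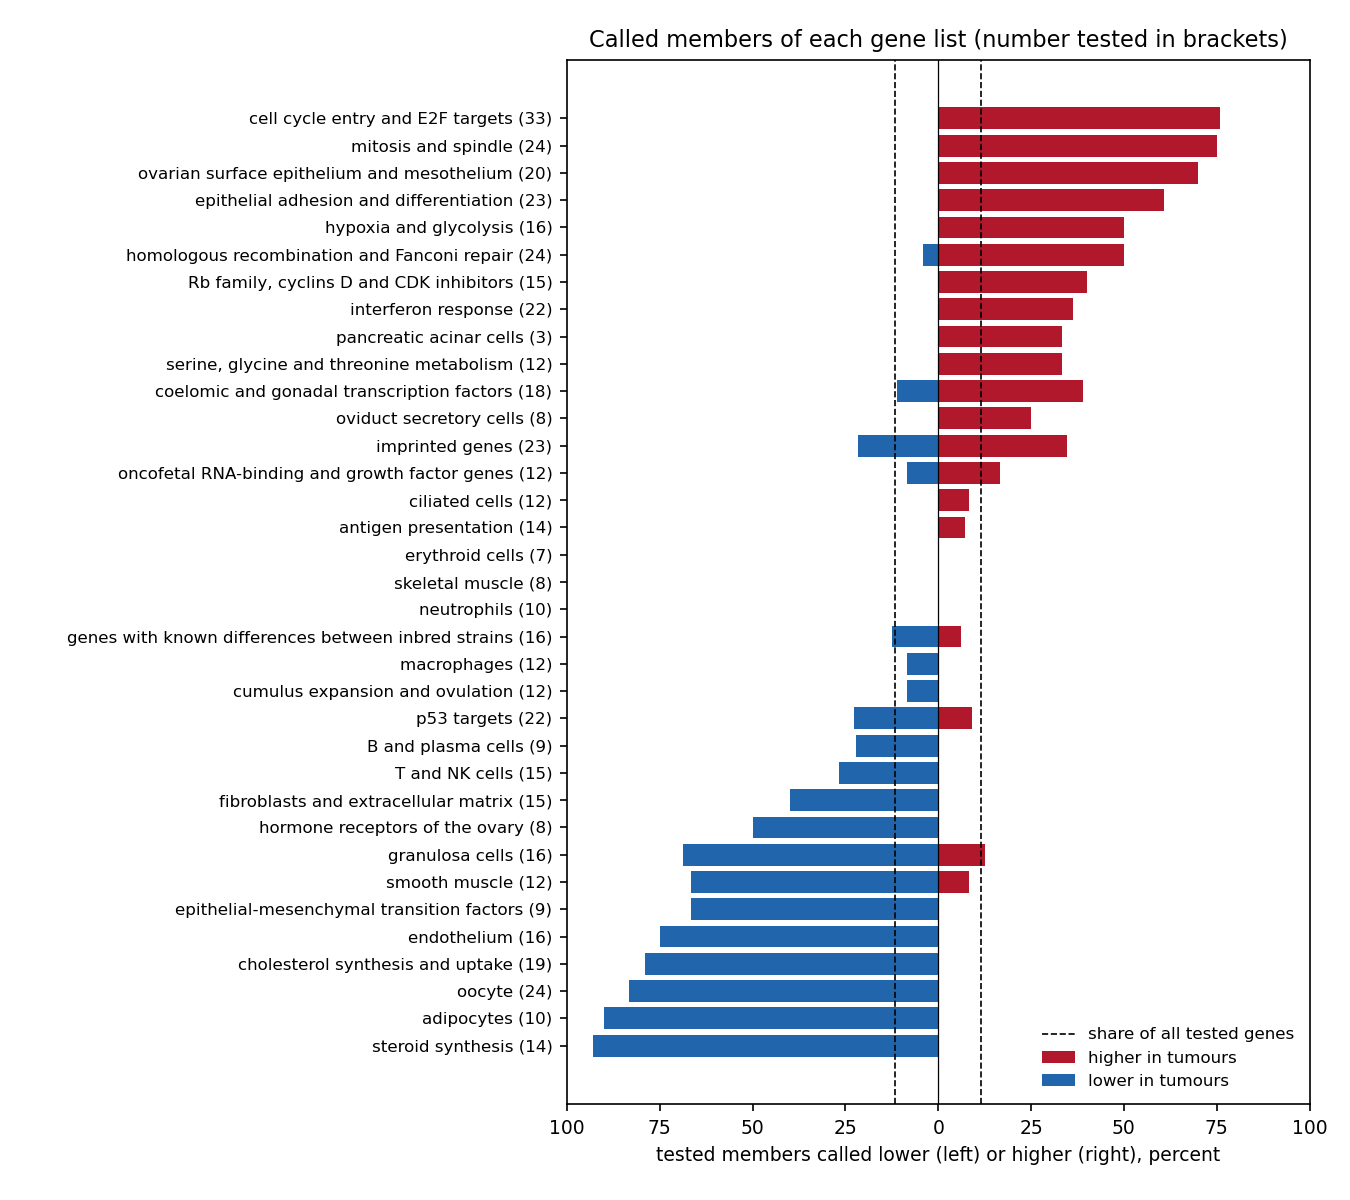
Percent of the tested members of each of 35 gene lists that rose (red, right) or fell (blue, left) in the tumours, with the number tested in brackets and dashed lines at 11.6% for all tested genes. E2F targets, mitosis and surface epithelium stand at the top, and steroid synthesis, adipocytes, oocyte and cholesterol synthesis at the bottom.

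Smooth muscle genes fell in 8 of 12 tested cases, with 1 higher and a median of −3.44. Myh11, the smooth muscle myosin heavy chain, had 7.37, 2.80 and 3.60 CPM in the tumours and 726, 565 and 615 in the ovaries (−7.12 ± 1.04, adjusted p = 4.38e-05). Actg2 had 0.536, 0.439 and 0.0610 against 175, 125 and 135 CPM (−8.69 ± 1.55, adjusted p = 0.000312). Acta2, which activated fibroblasts also express, had 120, 41.9 and 77.9 against 926, 734 and 757 CPM (−3.33 ± 0.62, adjusted p = 0.000485). The member that rose was Cald1, at 564, 835 and 1350 against 442, 407 and 487 CPM (1.04 ± 0.30, adjusted p = 0.0138), a call lost without tumour 3 (adjusted p = 0.117) or ovary 2 (0.0579).

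Fibroblast and matrix genes separated the tumours. Of 15 tested members 6 fell and none rose, with a median of −1.85. The proteoglycan gene Lum had 2.28, 0.0549 and 0 CPM in the tumours and 250, 202 and 218 in the ovaries (−8.21 ± 2.07, adjusted p = 0.00589). Col1a1, a chain of type I collagen, was not called: tumour 1 had 513 CPM, tumours 2 and 3 had 67.7 and 22.0, and the ovaries 672 to 862 (adjusted p = 0.118). Fn1, which encodes fibronectin, had 1472 CPM in tumour 1, above the ovaries at 257 to 303, and 181 and 33.6 in tumours 2 and 3, below them. Tumour 1 thus stood apart in matrix genes, with a list sum of 6899 CPM against 4766 and 2690 in tumours 2 and 3 and 7475 to 8322 in the ovaries. Without tumour 1, 11 members fell, and without tumour 2 or 3 the counts were 4 and 3. Col6a1 went the other way, with 541, 3394 and 1774 against 650 to 861 CPM (adjusted p = 0.201).

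Factors of epithelial-mesenchymal transition fell in 6 of 9 tested cases, with none higher. The homeobox gene Prrx1 had 6.50, 2.42 and 0.915 CPM in the tumours and 37.7, 32.8 and 32.7 in the ovaries (−3.40 ± 0.78, adjusted p = 0.00301). Zeb2 had 37.6, 12.0 and 26.4 against 136, 132 and 139 CPM (−2.42 ± 0.71, adjusted p = 0.015). The count was 1 without tumour 2, 1 without tumour 3 and 3 without any of the ovaries. Cdh2, which encodes N-cadherin, was at 165, 176 and 216 against 38.6, 40.9 and 51.7 CPM without a call (2.09 ± 0.85, adjusted p = 0.0764). These factors are also expressed by stromal cells, and the fibroblast list moved with them; its part in the result was not tested.

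Endothelial genes were lower in the tumours. Of 16 tested members 12 fell and none rose, with a median of −1.96. Tie1, a receptor kinase of vessels, had 15.8, 12.2 and 7.39 CPM in the tumours and 53.5, 50.01 and 45.5 in the ovaries (−2.07 ± 0.39, adjusted p = 0.000505). Pecam1 had 29.2, 29.9 and 27.0 against 74.9, 63.7 and 68.6 CPM (−1.27 ± 0.34, adjusted p = 0.00836). Kdr, the main receptor for VEGF, was not called at 88.8, 126 and 112 against 82.7, 74.7 and 86.9 CPM (adjusted p = 0.537). Adipocyte genes fell in 9 of 10 tested cases, and here an ovary stood apart: the list summed to 1319 CPM in ovary 1 against 450 and 461 in the others and 151 to 289 in the tumours. Pparg, the regulator of fat cell identity, did not share this excess in ovary 1. It had 39.4, 29.5 and 37.0 CPM in the ovaries and 0.201, 0.2196 and 0.122 in the tumours (−7.55 ± 1.05, adjusted p = 2.93e-05). Which cells of the ovary its RNA came from was not tested. The adipocyte count was 3 without tumour 2 or tumour 3 and 6 without ovary 1.

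Markers of immune cells fell or were not called. Of 15 tested T and NK cell genes 4 fell (26.7%, beside 11.6% over all genes) and none rose, and their summed level was 4.33 to 5.03 CPM in the tumours and 9.72 to 11.1 in the ovaries. Of 9 B and plasma cell genes 2 fell (22.2%). The T and NK cell count was 2 without tumour 2 or any of the ovaries and 1 without tumour 3, and the B cell count was 1 without any of the tumours or ovary 1 or 2. Macrophage genes summed to 559, 395 and 139 CPM in the tumours and 628, 375 and 373 in the ovaries, so that tumour 3 lay far below every other library. Of 12 tested macrophage genes 1 fell (8.33%), the mannose receptor gene Mrc1 (−1.41 ± 0.41, adjusted p = 0.0152), which lost its call without tumour 3 (0.0989) or ovary 1 (0.0671). The complement gene C1qa had 56.2, 33.3 and 14.2 CPM in the tumours against 35.8 to 46.8 in the ovaries (adjusted p = 0.806). Of 10 tested neutrophil genes edgeR called 0, with 0 at an unadjusted p under 0.05, DESeq2 called 0, and the fit of the 6 compared libraries alone called 1.

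Interferon-stimulated genes rose in 8 of 22 tested cases, with none lower and a median of 1.55. Oasl2, of the oligoadenylate synthetase family, had 249, 197 and 203 CPM in the tumours and 25.0, 22.7 and 28.9 in the ovaries (3.08 ± 0.39, adjusted p = 9.61e-06). Oasl1 had 19.1, 17.7 and 17.8 against 0.693, 0.915 and 1.97 CPM (3.91 ± 0.55, adjusted p = 3.26e-05), and the antiviral gene Rsad2 had 10.5, 11.8 and 19.4 against 2.08, 1.14 and 1.70 CPM (3.08 ± 0.60, adjusted p = 0.000714). Mx1 was low in both groups, at 1.48, 0.329 and 0.0610 against 0.329 to 0.624 CPM (adjusted p = 0.866). Of 14 antigen presentation genes 1 rose (7.14%, below the 11.6% of all genes). It was Tapbp, which loads peptides on class I molecules, at 364, 345 and 280 against 135, 127 and 138 CPM (1.31 ± 0.30, adjusted p = 0.00305). The class I gene H2-K1 was not called at 442, 191 and 134 against 179, 176 and 146 CPM, and tumour 1 was highest.

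Hypoxia and glycolysis genes rose in 8 of 16 tested cases, with none lower and a median of 1.00. Egln3, an oxygen-sensing hydroxylase gene induced by HIF, had 77.6, 57.9 and 91.1 CPM in the tumours and 5.13, 4.12 and 4.66 in the ovaries (4.03 ± 0.68, adjusted p = 0.00018). Pdk1, which diverts pyruvate from the mitochondrion, had 109, 88.0 and 124 against 18.0, 16.0 and 18.1 CPM (2.62 ± 0.30, adjusted p = 2.76e-06). The carbonic anhydrase gene Car9 had 12.3, 27.0 and 49.4 against 1.25, 1.83 and 1.81 CPM (4.17 ± 0.89, adjusted p = 0.00161), and Vegfa had 801, 507 and 537 against 190, 187 and 210 CPM (1.65 ± 0.53, adjusted p = 0.026). Among 12 tested genes of serine, glycine and threonine metabolism 4 rose (33.3%, beside 11.6% over all genes). Phgdh, the first enzyme of serine synthesis, had 296, 437 and 109 CPM against 58.7, 56.1 and 64.1 (2.24 ± 0.56, adjusted p = 0.0055). Tdh, threonine dehydrogenase, had 16.1, 373 and 107 CPM against 0.416, 0.114 and 0.383 (9.07 ± 1.52, adjusted p = 0.000209). The count was 2 without tumour 2, ovary 2 or ovary 3.

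Imprinted genes moved in both directions by large factors. Of 23 tested, 8 rose (34.8%) and 5 fell (21.7%), beside 11.6% in each direction over all genes. Zim1, Usp29 and Peg3, neighbours in 1 imprinted domain of chromosome 7, rose: Zim1, which is expressed from the maternal allele, had 16.6, 386 and 726 CPM in the tumours and 1.32, 1.03 and 1.42 in the ovaries (8.22 ± 1.39, adjusted p = 0.000189), and the paternally expressed Usp29 had 20.0, 56.1 and 97.5 against 0.693, 0.514 and 1.15 CPM (6.18 ± 1.39, adjusted p = 0.00409). Peg3, also paternally expressed, had 530, 1337 and 2705 against 34.8, 33.3 and 37.4 CPM (adjusted p = 0.0122, and 0.0502 and 0.0523 without ovary 1 or 2). For all 3 genes tumour 1 was the lowest tumour, tumour 3 the highest, and every tumour lay above every ovary. H19, a noncoding RNA, had 68.8, 844 and 328 against 27.4, 26.2 and 24.1 CPM (4.00 ± 1.04, adjusted p = 0.00743). The maternally expressed noncoding RNAs of the Dlk1 cluster on chromosome 12 were nearly absent: Meg3 had 0.402, 0.878 and 0.305 CPM against 251, 203 and 246 (−8.75 ± 1.35, adjusted p = 7.73e-05), and Rian had 0.201, 1.21 and 0.427 against 91.9, 72.4 and 115 CPM (−7.21 ± 1.04, adjusted p = 3.81e-05). The imprinted count that rose was 5 without tumour 3, 4 without ovary 1, 4 without ovary 2 and 5 without ovary 3. Of 12 oncofetal genes 2 rose (16.7%) and 1 fell (8.33%), shares near those of all genes, and 1 rose without tumour 2 or any of the ovaries. Igf2bp1, an RNA-binding protein of the fetus, had 16.4, 39.3 and 22.6 CPM against 0.277, 0.229 and 0.219 (6.72 ± 1.36, adjusted p = 0.00102), while Lin28a stayed at or under 0.305 CPM in the tumours against 0.763 to 1.54 in the ovaries (adjusted p = 0.142).

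The 12 genes with the largest rise, of those with a mean of at least 10 CPM in the tumours and no overlap with the ovaries, were mostly uneven among the tumours. Predicted genes and pseudogenes were left out as well. The overlap rule left out Cldn6, at 37.6, 0.659 and 0 CPM with no ovary count (10.78 ± 3.80, adjusted p = 0.0437). Its call was lost without tumour 1 (adjusted p = 0.359) or any of the ovaries (0.112 to 0.118). Tlx1, a homeobox gene, had 0.402 CPM in tumour 1 and 211 and 79.8 in tumours 2 and 3, with a single count in the ovaries. Irs4, an adaptor of insulin signalling, had 0.268, 267 and 25.0 CPM, with 3 ovary counts in all. Tbx5, a T-box factor, had 1.21, 11.9 and 20.0 CPM and none in the ovaries, at least 60.7-fold higher (adjusted p = 0.0118). For these 3 genes tumour 1 was the lowest of the tumours. Mybphl had the reverse order, at 43.8, 3.84 and 0.0610 CPM, and its call was lost without tumour 1 (adjusted p = 0.113) or any of the ovaries (0.0898 to 0.101). The basal keratin gene Krt17 was more even at 40.3, 14.3 and 15.1 CPM with 3 ovary counts in all. Krt15 rested on tumour 2 (0.670, 59.5 and 3.85 CPM, adjusted p = 0.0999 without it). The remaining genes were Tdh, Zim1 and Cdkn2a, given above, the class I gene H2-Q2 at 1.01, 8.07 and 26.0 CPM, Nmur2 at 4.49, 31.7 and 70.9 CPM (adjusted p = 0.0507 without ovary 3), and the desmosomal cadherin gene Dsc3 at 15.1, 43.4 and 6.35 CPM.

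**Figure D4:**
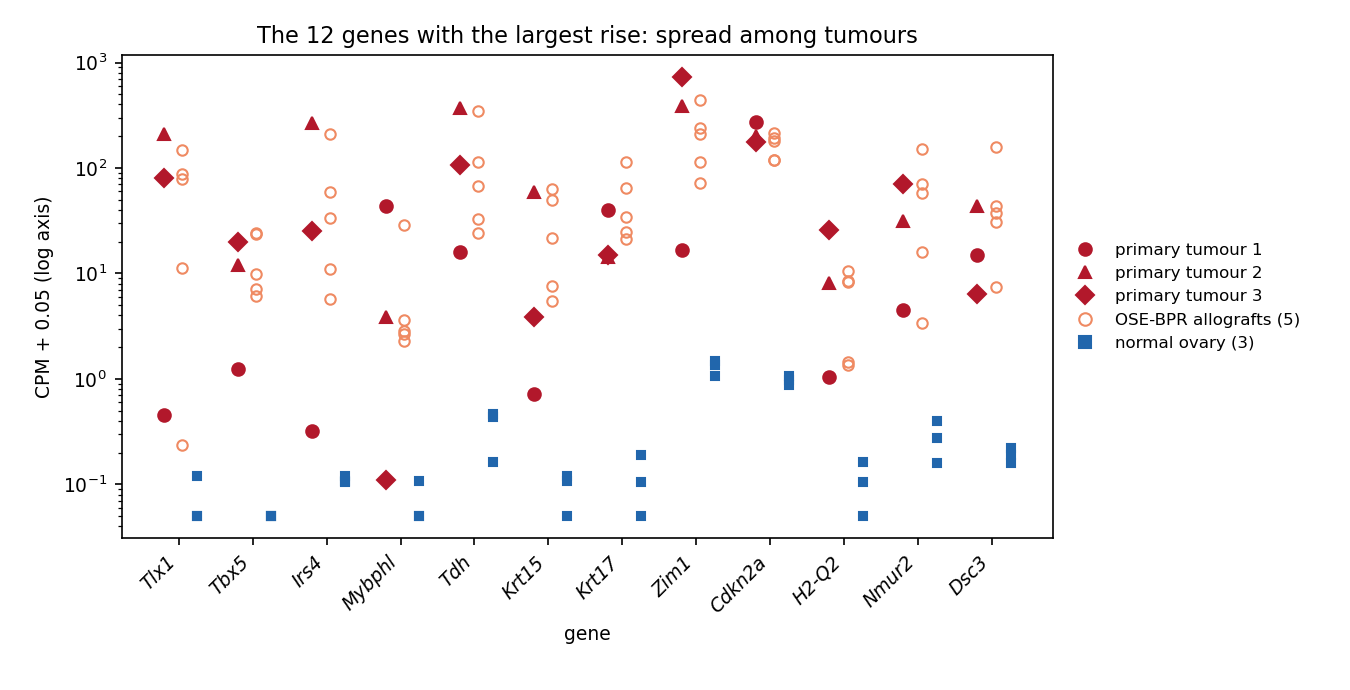
CPM + 0.05 on a log axis for the 12 genes with the largest rise among those without overlap of tumours and ovaries: filled red symbols are primary tumours 1, 2 and 3, open circles the 5 OSE-BPR allografts and blue squares the 3 ovaries. The tumours span 0.268 to 267 CPM in Irs4 and 177 to 273 in Cdkn2a.

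Tumour 1 differed from the others beyond these genes. Among all genes that rose, tumour 1 was the lowest tumour in 1392 of 2414 (57.7%), and among those that fell it was the highest in 1433 of 2428 (59%). The median range among the tumours was 1.00 on the log2 scale for genes that rose, against 0.37 among the ovaries. Among the 475 that rose at least 16-fold the medians were 2.44 and 0.62, and in 182 of them (38.3%) the tumours spanned more than 8-fold. The gene with the widest range of those with at least 50 CPM in the highest tumour was Irs4. Kcna6, a potassium channel gene, had 79.0, 2.42 and 0 CPM in the tumours against 0.485 to 0.743 in the ovaries and was not called (adjusted p = 0.0777). Cldn11 had 114, 43.9 and 0.122 CPM (adjusted p = 0.249) and the zinc finger gene Sall1 had 13.4, 0.0549 and 50.7 CPM against 1.09 to 2.08 (adjusted p = 0.131). Gpr50 had 0.0670, 8.73 and 70.9 CPM against at most 0.114 in the ovaries.

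The 12 genes with the largest fall, of those with a mean of at least 10 CPM in the ovaries and no overlap with the tumours, were led by products of follicles, corpora lutea and oocytes. Beside Akr1c18, Lhcgr, Hsd3b1, Nlrp14, Zp2, Cyp11a1 and Zp1 they were Khdc1b, Bpifb4, Grem1, Cfd and Apoa4. Khdc1b had no tumour count against 42.7, 45.5 and 46.9 CPM (at least 246-fold lower), and Bpifb4 none against 38.9, 39.0 and 42.6 CPM (at least 220-fold lower). Grem1, a BMP antagonist made by cumulus cells, had none against 49.8, 49.1 and 20.0 CPM (at least 217-fold lower). Cfd, an adipocyte gene, had 498 CPM in ovary 1 and 55.6 and 99.3 in the others, with 2 tumour counts in all, and lost its call without tumour 2 (adjusted p = 0.0653) or tumour 3 (0.0665). Apoa4 had a single tumour count against 111, 110 and 140 CPM.

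Transcripts-per-million (TPM), which correct for gene length, ranked mitochondrial and translation genes first in both groups. Ptma, a nuclear protein of proliferating cells, was among the 10 most abundant genes of the tumours alone, with a mean of 3765 TPM against 1618 in the ovaries, and it rose by 0.99 ± 0.19 on the log2 CPM scale (adjusted p = 0.000539). The mitochondrial gene mt-Cytb, among the 10 of the ovaries alone, had 1949, 1919 and 1426 against 4001, 4187 and 3662 CPM (−1.16 ± 0.26, adjusted p = 0.00268). Eef1a1, an elongation factor gene, was in both and was not called (−0.50 ± 0.24, adjusted p = 0.132).

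Differences were uneven along the genome. For the 11161 genes with a mean of at least 10 CPM over the 6 libraries, each library's log2 difference from the mean of the ovaries was centred on its own median and summarised by chromosome, as a description with no test. Each ovary was set against the mean of the other ovaries instead, and the ovaries gave chromosome medians of −0.03 to 0.04. Chromosome 13 was low in every tumour, at −0.66, −0.85 and −0.86, and 167 of its 373 genes fell (44.8%) while 5 rose, beside 12.7% that fell and 13.5% that rose among all these genes. With its genes split by position into 4 stretches of equal number, each stretch had a median of −0.77 to −0.98 in tumours 2 and 3, whereas in tumour 1 stretch 1 was at −0.05 and the others at −0.67 to −0.83. Of the genes of chromosome 13, 77.5%, 87.7% and 83.4% lay below all 3 ovaries in tumours 1, 2 and 3. They included genes of no shared function: Rps23 of the ribosome fell by 1.36, Sdha of the mitochondrial respiratory chain by 1.13 and Txndc5 of the endoplasmic reticulum by 1.58 on the log2 scale. Several genes described above lie there, among them Fancc, Hmgcs1, Inhba, Sfrp4 and Akr1c18. The OSE-BPR allografts had chromosome 13 medians of −0.34 to −0.90, and the C57Bl/6-labelled primary tumours −0.81 to 0.08.

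Chromosome 16 was low in tumours 2 and 3, at −0.75 and −0.78, and not in tumour 1, at 0.15, and 71 of its 342 genes fell (20.8%). In those tumours every one of the 4 stretches had a median from −0.57 to −0.86. The largest of the other shifts were found in 1 tumour each. In tumour 1 they were −0.65 on chromosome 10, −0.61 on chromosome 12, −0.44 on chromosome 18, −0.51 on the X and 0.34 on chromosome 6, where stretch 4 was at 0.77. In tumour 2 chromosome 3 was at 0.55, and on chromosome 14 stretch 2 was at −0.87 and stretch 3 at −0.45 with the outer ones at −0.07 and −0.04. In tumour 3 chromosome 9 was at −0.22 as a whole, with stretch 4 at −0.88, stretch 3 at −0.24 and stretch 1 at 0.23. Allografts 1, 3 and 4 shared the chromosome 16 pattern at −0.53, −0.84 and −0.88, and allografts 2 and 5 were at 0.08 and −0.07. What moves these medians was not tested.

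**Figure D5:**
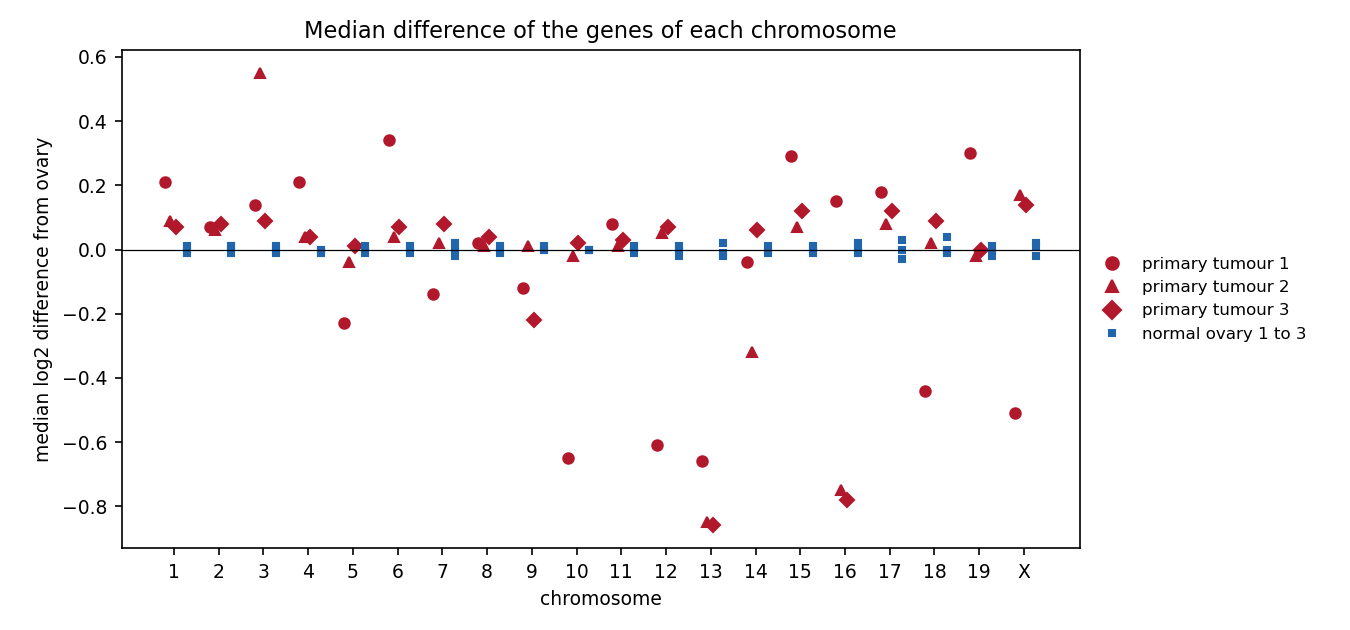
Median log2 difference from the mean of the ovaries for the genes of each chromosome (at least 10 CPM, centred per library): red symbols are primary tumours 1, 2 and 3 and blue squares the 3 ovaries. Each ovary is set against the mean of the other ovaries. Chromosome 13 lies between −0.66 and −0.86 in the 3 tumours, and chromosome 16 at −0.75 and −0.78 in tumours 2 and 3 only.

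Lists for other cell types held few calls. For ciliated cells 1 of 12 tested genes rose (8.33%, below the 11.6% of all genes). It was Rsph1, at 18.0, 7.03 and 5.43 against 1.25, 2.00 and 1.53 CPM (2.66 ± 0.52, adjusted p = 0.000715), beside 51.7 to 69.5 CPM in the oviducts. Foxj1, the master regulator of cilia, had 1.61, 0.165 and 0.122 against 0.286 to 0.832 CPM (adjusted p = 0.929). For oviduct secretory cells 2 of 8 rose (25%, beside 11.6% over all genes), Emx2 and Wfdc2, and only 1 without tumour 1 or any of the ovaries. Ovgp1, the oviduct glycoprotein, had 5.09, 14.9 and 5.31 against 3.81, 3.83 and 2.85 CPM (adjusted p = 0.345). Of 3 tested pancreatic genes Pnlip, a lipase, rose at 8.45, 2.86 and 4.70 CPM against no ovary count, at least 29.4-fold higher (adjusted p = 0.00016), and Cela1 and Cpa1 did not. Of 8 skeletal muscle genes and 7 erythroid genes edgeR and DESeq2 each called 0, with 0 at an unadjusted p under 0.05 in edgeR. In each of these lists at least 1 other alternative called 1 member higher. Tumour 2 had the highest erythroid sum, 2202 CPM against 309 and 292 in the other tumours and 450 to 632 in the ovaries. In the list of genes known to differ between inbred strains, 2 of 16 fell (12.5%) and 1 rose (6.25%), beside 11.6% in each direction over all genes.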

How the data were processed

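RNA-seq libraries of total RNA were compared as 3 OSE-BPR primary tumours against 3 normal ovaries, within a fit of all 32 libraries. Per the submitters' processing notes, the authors used bcl2fastq, cutadapt 1.18, STAR 2.7.0f, RSEM 1.3.1 and Picard with the builds mm10 and GRCm38, and the notes give no order or settings. The deposited tables hold RSEM expected counts per gene, not normalized, and the authors' TPM values, which are scaled for gene length and library size. The library's strandedness is not stated, so reads of overlapping and antisense genes cannot be told apart, and near-identical copies share reads. All 55450 gene IDs matched the annotation, and 0 sample columns were left unmapped.

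Expected counts were rounded. The 20887 genes that passed edgeR's filterByExpr (minimum count 10, minimum total 15) were normalized with TMM factors (edgeR 4.0.16, R 4.3.3), and the contrast of the primary tumours minus the ovaries was tested with the quasi-likelihood F test, with Benjamini-Hochberg adjustment over all tested genes. Every adjusted p in the text is from this test unless another tool is named, and the scripts were tested on simulated data. The SE printed beside log2 fold changes was not fitted directly. It is the absolute log2 fold change divided by the square root of the F statistic of the test. An exact permutation test of 3 against 3 cannot go below p = 0.1. The tumours and the ovaries are labelled as separate animals. Alternatives were RLE factors, DESeq2 1.42.0, limma 3.58.1 (voom with quality weights, and log2(TPM + 1)), no filter, fits of fewer libraries, a replicate block, a fold threshold and leaving out each library, and the fit of the 14 OSE-BPR and normal tissue libraries was added after seeing the data.

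The compared groups and gene lists were chosen with earlier results of these data known. Named genes are the 12 largest changes in each direction (mean of at least 10 CPM in the higher group, no overlap, no predicted genes or pseudogenes), up to 4 called members per list in its main direction and 2 against it, the targeted genes and a few markers, the 10 genes of highest TPM per group, the 8 with the widest range among tumours, and the strain list. Other list members and genes named beside them were chosen after their values were seen.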

Additional observations from a re-analysis of the deposited data

Results flagged for a closer look

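The 24 genes named above for the largest rise and fall were looked at in the 5 OSE-BPR allografts. That group is large enough to ask whether 1 library stands apart. The measure was the gap of the extreme library to its neighbour as a share of the range, on CPM without a log. In 4 genes with counts in all 5 allografts, 1 allograft stood apart by a gap of more than 0.71 of the range. Chance passes this limit in about 1 in 20 groups only where values spread normally. CPM need not do so, 24 genes were looked at and the log2 scale was not tried, so no chance rate is given. Irs4 had 211 CPM in allograft 4 and 5.66 to 58.7 in the others, and Tdh had 346 CPM in the same allograft and 24.3 to 113 in the others. Mybphl had 28.6 CPM in allograft 2 and 2.24 to 3.60 elsewhere, and Dsc3 had 157 CPM in allograft 3 and 7.40 to 43.9 elsewhere. Another 4 genes, which fell in the primary tumours, had counts in 1 allograft only, so that the measure is fixed by the zeros of the other 4 and their values are a description: Lhcgr 0.124 CPM in allograft 5, Nlrp14 0.0644 in allograft 4, Bpifb4 0.0539 in allograft 2 and Cfd 5.93 in allograft 2. The first 3 of these levels are below the floor of 3 counts. In Irs4, Tdh and Mybphl 1 primary tumour also stood far above the others, and these are separate animals.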

How the results depend on the processing

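None of the 136 called genes among the 162 named ones reversed its direction under the 15 alternatives run. The 4842 called genes (2414 higher, 2428 lower) became 9901 (4770 and 5131) with limma voom and quality weights, where 99% of the original calls were kept, 5517 (2946 and 2571) with DESeq2, 5376 with limma on log2(TPM + 1), 4800 with RLE factors, 4044 without a filter, 5523 in the fit of the 6 compared libraries and 3837 in the fit of 15. With libraries left out in turn the called genes ranged from 3158 to 4907, those higher from 1424 to 2448 and those lower from 1402 to 2459. The cause of these shifts was not tested, beyond there being fewer samples. The replicate block of the 3 animals that gave both normal tissues left 4264 called genes (2178 higher, 2086 lower), and nothing in the labels pairs tumours with ovaries. Of those 136 genes 91 kept their side of the threshold in all of these alternatives. Over all genes with a test, not only those of at least 10 CPM, the chromosome 13 medians were −0.43, −0.70 and −0.61, a choice added after seeing the data. Medians of the lists for macrophages, neutrophils, ciliated, oviduct secretory and erythroid cells and of the strain list changed sign under at least 1 alternative. Genes with fewer than 3 counts in a library cannot be placed below the floor of 0.164 to 0.208 CPM. With 3 animals in each group and a spread taken from all 32 libraries, a call that misses the threshold does not show that levels were equal.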
